A study of Mus musculus with 18 samples.

Results

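The question examined here is which genes of cultured mouse pre-B cells responded differently to loss of interleukin 7 (IL-7) when the cells lacked Artemis than when they lacked the RAG1 recombinase. The measure was the difference of 2 responses: the change from growth in IL-7 (day 0) to 2 days without it in Art-/- cultures, minus the same change in Rag1-/- cultures. It used 12 of the 18 arrays of the series, from 6 of its 9 cultures, in 4 groups of 3 arrays. The other 6 arrays, from 3 cultures of the genotype Art-/-:Nfkb2-/-:μIgH:Bcl2, entered the normalization, the filter and the estimate of spread but not the difference. The cells were grown from bone marrow of mice 4 to 6 weeks old whose background mixed C57BL/6 with BALB/c, for 7 to 10 days in medium with 5 ng/mL IL-7. The groups were Rag1-/-:μIgH:Bcl2 and Art-/-:μIgH:Bcl2, each in IL-7 and withdrawn. Every culture, of either genotype, carried the μIgH heavy-chain transgene and the Bcl2 transgene; the sources used here give neither the promoter of a transgene nor a wild-type culture. Each culture gave an array at both times, and the response of a culture is the difference of its 2 arrays.

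Pre-B cells carry a rearranged heavy chain, divide in response to IL-7, and on losing it stop dividing and begin to recombine their light-chain genes. RAG1 and RAG2 cut the DNA at these genes, and Artemis opens the hairpin ends that the cut leaves, so that without Artemis the cut ends stay unjoined, while without RAG1 no cut is made. An unjoined break activates the kinase ATM and, through it, p53 and NF-kB, and a Bcl2 transgene keeps such cells alive after cytokine loss. Per the series title, the study asked how RAG-made breaks bear on signals of the pre-B-cell receptor.

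Expression was read on 1-colour Illumina MouseRef-8 arrays. Between 10091 and 10894 of the 25697 probes were detected per array (39.3% to 42.4%, detection p below 0.01), 8446 genes were tested, and replicates of a group correlated at 0.979 to 0.993, and precision is limited by the 3 arrays in each group. The Rag1 probe was brighter on the arrays labelled Rag1-/- than on those labelled Art-/- (values below); the sources used here do not say whether it lies in the deleted part, so it checks no label, and the groups are named as labelled. Dclre1c, the gene of Artemis, was not analysed here. Transcripts of the Y-linked genes Eif2s3y and Kdm5d were detected on all 6 Rag1-/- arrays and on no Art-/- array, and Xist, the RNA of the inactive X chromosome, showed the reverse, so sex and genotype cannot be told apart; the responses of these 3 genes had differences of 0.02, -0.02 and 0.87 (adjusted p = 0.945, 0.962 and 0.131). The transcripts of the pre-B marker list were detected on nearly every array (11 to 14 of 14 per array). Several values below move with myeloid transcripts, whose summed signal is given with them.

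The response to IL-7 loss differed between the genotypes for 363 of 8446 genes, or 4.3%, at an adjusted p below 0.05 (limma's moderated test, Benjamini-Hochberg). The response was more positive in Art-/- cells for 227 genes (2.69%) and less positive for 136 (1.61%), and 1667 genes had an unadjusted p below 0.05. For 74 and 39 of the called genes the difference was at least 2-fold. Against these stand 4605 genes (54.5%) that changed on withdrawal in Art-/- cells and 4517 (53.5%) that did so in Rag1-/- cells. The median difference over all genes was 0, the median size among the calls 0.85 on the log2 scale, and the smallest 0.45. Of the 363 called genes, 264 were detected on all 12 arrays. These are bulk measurements, in which fewer cells of a type and less RNA per cell cannot be told apart.

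**Figure D1:**
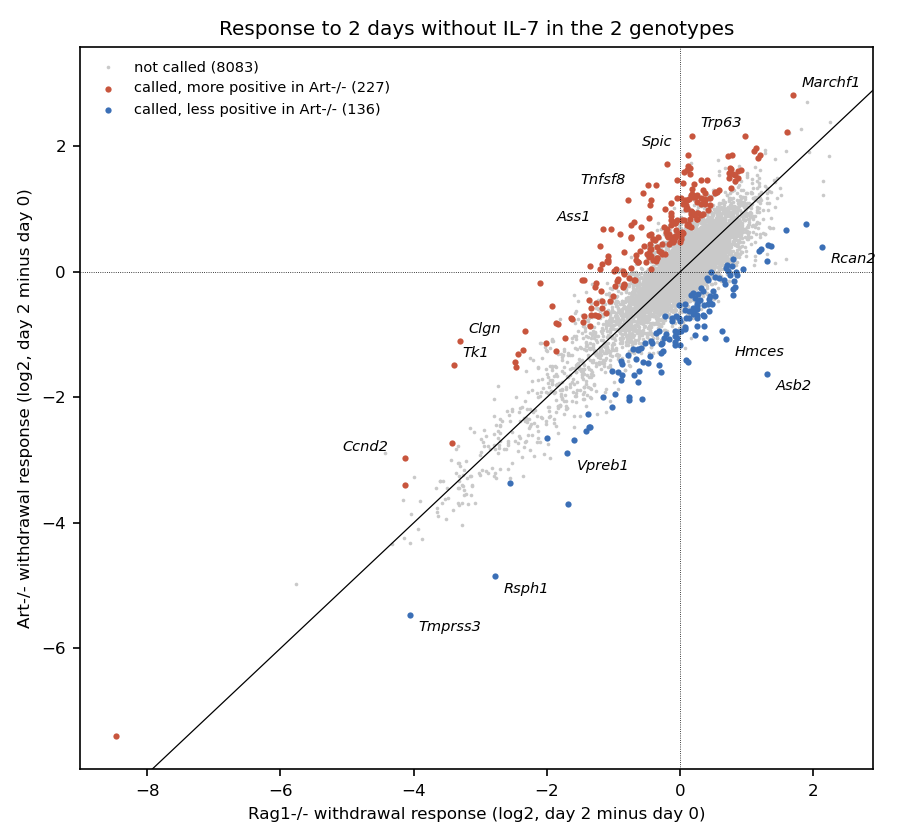
Mean withdrawal response (log2, day 2 minus day 0) of each of the 8446 genes in Rag1-/- cultures (x axis) and Art-/- cultures (y axis); the diagonal marks equal responses and the dotted lines no change. Grey points are the 8083 genes without a called difference, red points the 227 with a more positive and blue points the 136 with a less positive response in Art-/- cells; Asb2 lies farthest below the diagonal, at 1.31 and -1.62.

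The number of calls depended on the model. Without pairing the arrays of a culture it was 107, from the 12 arrays fitted alone 151, and with 1 culture left out between 155 (without Art-/- culture 1) and 572 (without Rag1-/- culture 1). With the mean log2 signal of the 16 tested myeloid markers as a covariate, 0 genes passed limma's adjusted test and 595 had an unadjusted p below 0.05. In that fit all 363 genes kept their sign, their median size was 0.78 in place of 0.85, and their median standard error was 0.26 in place of 0.15.

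The called genes fell into several kinds of response. Of the 227 more positive genes, 79 rose in Art-/- cells and had no called response in Rag1-/- cells (among them Trp63, B3galnt1, Spic and Wnt10b). Another 40 rose in both genotypes, 38 had a called fall in Rag1-/- cells alone, 35 fell in both, and 35 rose in Art-/- and fell in Rag1-/- cells. Of the 136 less positive genes, 46 fell in Art-/- cells without a called Rag1-/- response, 43 fell in both, 21 had a called rise in Rag1-/- cells alone, 19 fell in Art-/- and rose in Rag1-/- cells, and 7 rose in both. Opposite called responses were thus found for 54 genes.

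Most called genes, 274 of 363, had no called difference between the genotypes while IL-7 was present. That share is smaller than over all genes, of which 6.46% had a called difference in IL-7. A missing call does not mean equal levels. Of the more positive genes, 126 had no called difference in IL-7 and were higher in Art-/- cells after withdrawal, as were Tk1, Clgn and Ass1, and 55 were higher in Art-/- cells at both times, as were Lrp4, Tnfsf8 and Wnt10b. For 10, among them Fos, Ier2 and Klf6, the signal was lower in Art-/- cells in IL-7 and had no called difference after withdrawal. Of the less positive genes, 100 had no called difference in IL-7 and were lower in Art-/- cells afterwards, as were Rsph1, Thbd and Vpreb1, and 14 were lower at both times, as were Asb2 and Hmces. Over all genes, 3.63% were higher and 2.83% lower in Art-/- cells in IL-7 (6.46% in all), and 10.1% and 8.89% after withdrawal (19% in all), from the same arrays as the responses.

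Tk1, which encodes the thymidine kinase of dividing cells, had the smallest adjusted p. Its log2 signal in IL-7 was 10.26, 10.76 and 10.62 in the Rag1-/- cultures and 10.64, 10.58 and 10.82 in the Art-/- cultures. After withdrawal it was 6.68, 7.46 and 7.28 in the first genotype and 9.26, 9.03 and 9.29 in the other. The groups overlapped in IL-7 and stood apart after withdrawal: Tk1 fell 10.6-fold in Rag1-/- and 2.8-fold in Art-/- cells, a difference of 1.92 ± 0.13 (SE, adjusted p = 0.00041). Its other probes that passed gave 1.13 and 1.13. Clgn, the gene of the chaperone calmegin, had the largest positive difference, 2.21 ± 0.49 (adjusted p = 0.0327). It started at 10.43 to 10.85 on all 6 arrays in IL-7 and changed by -1.88, -3.69 and -4.37 in the Rag1-/- cultures against -1.28, -1.07 and -0.95 in the Art-/- cultures. The Rag1-/- cultures varied widely here, and the call was lost without Rag1-/- culture 2 or 3 and without any Art-/- culture. The call of Clgn was also lost with the series matrix, with no filter, without pairing and from the 12 arrays fitted alone.

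Among the 12 arrays, Spic, Trp63, Fcer2a and Tnfsf4 were detected in withdrawn Art-/- cells only. Spic, which encodes an ETS-family transcription factor that opposes PU.1 at light-chain genes, had signals of 7.15, 7.31 and 7.09 on the withdrawn Art-/- arrays and was not detected on any of the other 9 arrays of the 12, where it read 4.66 to 5.48. Its Art-/- response was 1.92, 1.82 and 1.87 in the 3 cultures, at least 2.00-fold up, and its difference was 1.76 ± 0.17 (adjusted p = 0.00118). Trp63, the p53 family member p63, had 8.07, 6.70 and 6.44 on the withdrawn Art-/- arrays, no detection on the other 9 and a rise of at least 1.85-fold (difference 1.99 ± 0.35, adjusted p = 0.0139). Fcer2a, the low-affinity IgE receptor CD23 of mature B cells, read 7.08, 7.64 and 7.67 on the withdrawn Art-/- arrays and was undetected on the other 9, at least 2.44-fold up (difference 1.5 ± 0.2, adjusted p = 0.00433). Tnfsf4, which encodes the costimulatory ligand OX40L, was detected on 2 of those 3 arrays and nowhere else among the 12 (difference 1.51 ± 0.17). In Art-/-:Nfkb2-/- cells, Spic was detected on no array, Trp63 on 2 of the 3 withdrawn arrays, Tnfsf4 on all 3 of these and Fcer2a on all 6 arrays. Spic thus passed the filter of detection on 3 arrays only through the group where it is high, and its adjusted p is no separate support for that rise. Trp63 and Tnfsf4 passed only through withdrawn arrays without Artemis. None of these 3 genes was tested under a filter of detection on at least 9 arrays. The normalization adds an offset of 16 to every signal, so the changes of such dim genes are understated.

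Ass1, Mgmt, Tnfsf8, Lrp4, St14 and Ticam2 had called responses in opposite directions, up in Art-/- and down in Rag1-/- cells, whereas Wnt10b and B3galnt1 had no called Rag1-/- response. Ass1, the enzyme argininosuccinate synthase, rose in every Art-/- culture (0.51, 0.81 and 0.71) and fell in every Rag1-/- culture (-0.76, -1.53 and -1.18), and differed by 1.84 ± 0.18 (adjusted p = 0.00119). Mgmt, the enzyme that removes methyl groups from guanine in DNA, was detected on all 3 withdrawn Art-/- arrays (6.79, 7.12 and 7.64) and on no withdrawn Rag1-/- array (difference 1.94 ± 0.21). Tnfsf8, which encodes the TNF-family ligand CD30L, rose from 7.10, 7.00 and 6.91 to 8.50, 7.86 and 8.42 in Art-/- cells, while in Rag1-/- cells it was detected on 1 of 6 arrays (difference 1.82 ± 0.22). Lrp4, an LDL-receptor relative, and St14, the membrane protease matriptase, followed with 1.87 ± 0.22 and 1.75 ± 0.19; each was detected on all 6 Art-/- arrays and on 1 of 6 Rag1-/- arrays. Ticam2, an adaptor of Toll-like receptor 4, differed by 1.60 ± 0.18. Wnt10b, a secreted Wnt ligand, was not detected in Rag1-/- cells and rose from 6.89, 6.85 and 6.99 to 8.28, 8.67 and 8.85 in Art-/- cells (difference 1.56 ± 0.15). B3galnt1, a glycosyltransferase, was likewise undetected in Rag1-/- cells and read 7.96, 8.01 and 7.86 in withdrawn Art-/- cells (difference 1.92 ± 0.18). In cells without any detected signal, a response is not measured, so the differences of Wnt10b and B3galnt1 rest on the rise in Art-/- cells. The called Rag1-/- falls of Mgmt, Tnfsf8, Lrp4 and St14 (-0.78, -0.56, -0.48 and -0.36) lie at or near background, so their size is uncertain.

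**Figure D2:**
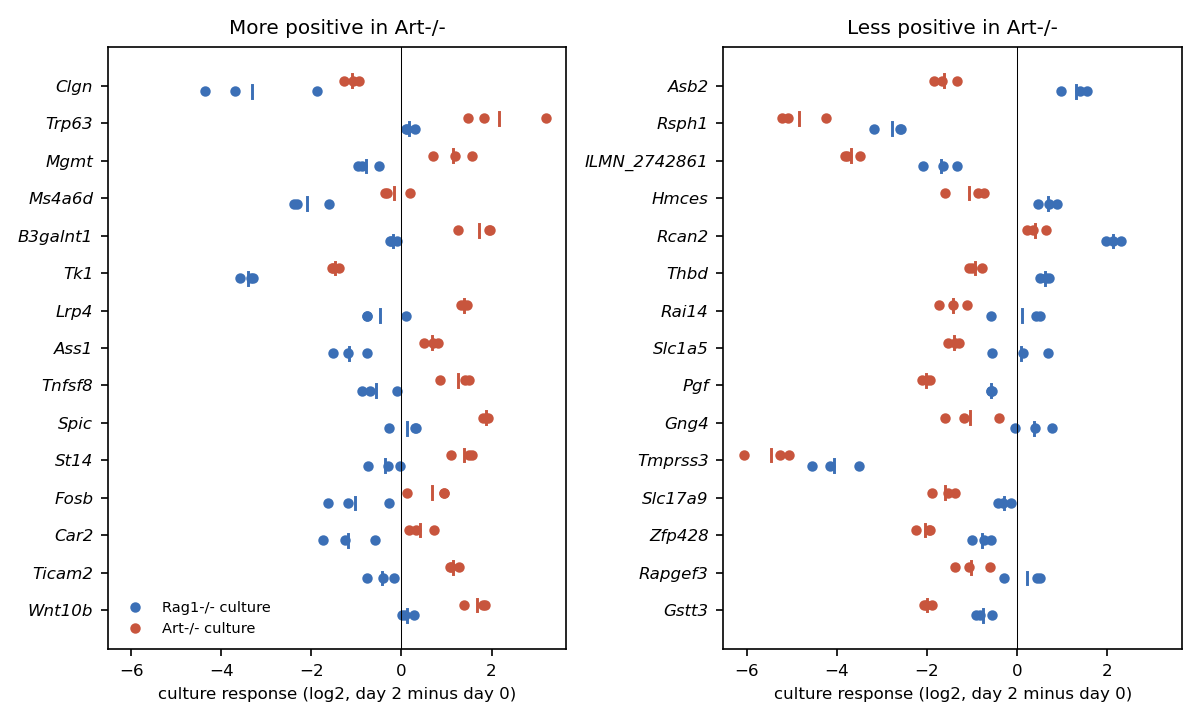
Response of each culture (log2, day 2 minus day 0) for the 15 genes with the largest positive difference (left) and the 15 with the largest negative difference (right); blue points are the 3 Rag1-/- cultures, red points the 3 Art-/- cultures and ticks their means. The genes were picked among those whose red and blue points do not overlap. ILMN_2742861 is a probe without a gene symbol, and several genes are undetected in a group, as the text says.

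Asb2, which encodes a substrate receptor of a ubiquitin ligase, had the largest difference of all, -2.93 ± 0.25 (adjusted p = 0.00107), 7.6-fold. In Rag1-/- cultures its signal went from 9.87, 8.72 and 9.27 in IL-7 to 10.85, 10.28 and 10.66, and in Art-/- cultures from 6.99, 8.31 and 7.81 to 5.66, 6.46 and 6.14, where it was detected on 1 of 3 arrays. It thus rose in each Rag1-/- culture and fell in each Art-/- culture, and its level was lower in Art-/- cells at both times. Rsph1, a component of the radial spoke of cilia, fell 28.8-fold in Art-/- and 6.88-fold in Rag1-/- cells. Its signal started at 12.47 to 12.99 on the 6 arrays in IL-7 and ended at 10.39, 9.47 and 9.90 in Rag1-/- against 7.57, 7.54 and 8.37 in Art-/- cultures (difference -2.07 ± 0.25, adjusted p = 0.0027). Tmprss3, a membrane serine protease, also fell in both genotypes and was not detected on any withdrawn Art-/- array, a fall of at least 34.8-fold, against 16.7-fold in Rag1-/- cells (difference -1.40 ± 0.31, adjusted p = 0.0336). The call of Tmprss3 was lost without Rag1-/- culture 1 or 3, without Art-/- culture 1 or 3, with the series matrix, with no filter, without pairing and from the 12 arrays fitted alone.

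Hmces and Thbd moved in opposite directions in the 2 genotypes. Hmces, which encodes a protein that shields abasic sites in DNA, read 12.15, 12.15 and 12.15 in withdrawn Rag1-/- cells and 9.34, 9.55 and 9.95 in withdrawn Art-/- cells, after 11.26 to 11.69 and 10.3 to 10.95 in IL-7 (difference -1.76 ± 0.22). Thbd, the thrombin receptor thrombomodulin, had equal levels in IL-7 (8.09 to 8.22 and 8.07 to 8.25) and ended at 8.60 to 8.87 in Rag1-/- and 7.01 to 7.37 in Art-/- cells (difference -1.57 ± 0.15, adjusted p = 0.00118). Rcan2, a regulator of calcineurin, rose in Rag1-/- cells by 2.13, 2.30 and 1.97 and was not detected on any Art-/- array (difference -1.73 ± 0.19). Its called Art-/- rise of 0.40 lies at background, so the difference rests on the Rag1-/- rise. Slc1a5, the glutamine transporter ASCT2, fell in the Art-/- cultures (-1.37, -1.3 and -1.53) while the Rag1-/- cultures gave 0.14, 0.69 and -0.56 (difference -1.49 ± 0.25). The growth factor gene Pgf, detected on all 3 Art-/- arrays in IL-7 and on none after withdrawal, fell at least 1.31-fold there and 1.49-fold in Rag1-/- cells, so its fitted difference of -1.44 ± 0.12 is not a measured size. The remaining genes of this rank were Rai14 (-1.55), Gng4 (-1.43), Slc17a9 (-1.32), Zfp428 (-1.27), Rapgef3 (-1.24) and Gstt3 (-1.23), all of which fell in Art-/- cells. The fall of Gng4, undetected in withdrawn Art-/- cells, is known only as at least 1.04-fold, and the calls of Gng4 and Rapgef3 stayed in 2 and 1 of the 6 fits with a culture left out.

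**Figure D3:**
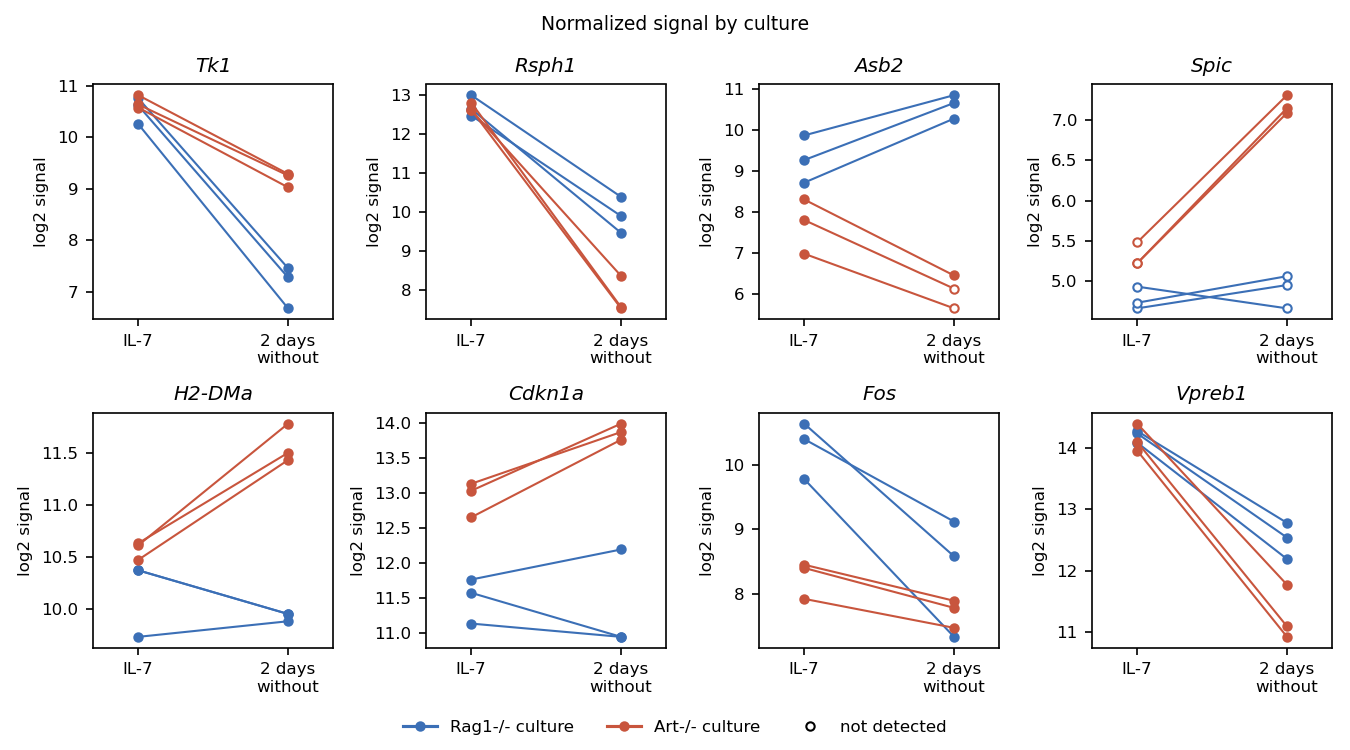
Normalized log2 signal of 8 genes on the 12 arrays, in IL-7 and 2 days after its withdrawal; each line joins the 2 arrays of a culture (blue Rag1-/-, red Art-/-) and open circles are arrays on which the probe was not detected. Tk1, Rsph1 and Vpreb1 start together and separate after withdrawal, Spic is detected, among these arrays, in withdrawn Art-/- cells only, and Fos starts lower in Art-/- cells than in Rag1-/- cells, with a difference of -2.02.

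Of 14 tested genes of antigen presentation on MHC class II, the molecules that show peptides to helper T cells, 7 were called, all more positive in Art-/- cells, against 2.69% of all genes, and the median difference of the list was 0.92 against 0 over all genes. H2-DMa and H2-DMb1 encode the chaperone that loads peptide, H2-Oa a subunit of its inhibitor, H2-Ab1 and H2-Eb1 chains of the presenting molecules, Ciita the transactivator of these genes and Marchf1 a ligase that removes class II from the surface. H2-DMa read 9.73, 10.37 and 10.37 in Rag1-/- cells in IL-7 and 9.88, 9.95 and 9.95 after withdrawal. In Art-/- cells it went from 10.47, 10.61 and 10.63 to 11.43, 11.78 and 11.50, a rise in each culture that none of the Rag1-/- cultures matched (difference 1.23 ± 0.21, adjusted p = 0.0136). H2-Eb1 rose by 1.18, 1.34 and 1.39 in Art-/- cultures against 0.76, 0.30 and -0.02 in Rag1-/- cultures (difference 0.96 ± 0.19), and H2-DMb1 by 1.02, 1.12 and 1.11 against 0.37, -0.24 and 0.01 (difference 1.03 ± 0.17).

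Ciita rose by 1.25 in Art-/- and 0.37 in Rag1-/- cells (difference 0.88 ± 0.19, adjusted p = 0.0291), and Marchf1 by 2.82 and 1.70 (difference 1.12 ± 0.21). H2-Ab1 rose by 1.16 and 0.37 (difference 0.79 ± 0.16), and its other 3 passing probes gave 0.87, 0.70 and 0.81. H2-Oa had the smallest called difference, 0.57 ± 0.13. The members without a call were H2-Aa (1.06), H2-DMb2 (0.98), Ifi30 (0.95), Cd74 (0.42), Ctss (0.37), H2-Ob (-0.05) and Lgmn (-0.25). Only H2-Oa of the 7 had a called level difference in IL-7, and of the 32 called genes on chromosome 17 (7.69% of 416 tested), 5 are members of this list. The number of members called was 3 without Rag1-/- culture 2 or 3, 10 without Rag1-/- culture 1, 2 to 4 without an Art-/- culture, 4 with culture as a random block, 2 from the 12 arrays fitted alone, 1 without pairing and 0 with the myeloid covariate, with list medians of 0.66 to 1.08 over all alternatives.

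Class II promoters are known to share a set of short elements, one of which, the Y box, is an inverted CCAAT. The windows below show where CCAAT stands in 3 of the called members. They were taken from RefSeq (GRCm38.p6), run from 250 bases before to 50 bases after the annotated start, and were chosen after the values were seen; capitals mark CCAAT or its reverse complement ATTGG. The positions are H2-DMb1, chr17:34152941-34153240 on the plus strand, H2-Eb1, chr17:34305617-34305916 on the plus strand, and H2-Oa, chr17:34092129-34092428 on the plus strand.
H2-DMb1: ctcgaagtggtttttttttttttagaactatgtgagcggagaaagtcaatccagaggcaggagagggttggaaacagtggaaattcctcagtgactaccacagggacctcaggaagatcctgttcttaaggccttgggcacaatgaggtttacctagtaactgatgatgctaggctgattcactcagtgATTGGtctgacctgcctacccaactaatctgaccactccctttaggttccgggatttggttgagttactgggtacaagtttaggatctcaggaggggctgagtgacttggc
H2-Eb1: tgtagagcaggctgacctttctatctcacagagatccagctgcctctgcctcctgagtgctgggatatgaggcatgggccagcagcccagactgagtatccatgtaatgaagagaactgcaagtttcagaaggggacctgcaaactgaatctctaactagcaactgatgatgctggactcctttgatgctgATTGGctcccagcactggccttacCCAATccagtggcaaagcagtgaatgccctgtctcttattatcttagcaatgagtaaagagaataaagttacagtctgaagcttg
H2-Oa: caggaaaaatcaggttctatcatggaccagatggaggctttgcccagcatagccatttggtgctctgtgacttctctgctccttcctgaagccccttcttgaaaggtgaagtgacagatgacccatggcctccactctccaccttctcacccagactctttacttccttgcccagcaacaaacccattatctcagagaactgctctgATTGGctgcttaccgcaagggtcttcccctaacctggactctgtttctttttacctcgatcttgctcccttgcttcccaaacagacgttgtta
CCAAT was found on either strand in 7 of 11 class II members with a window (63.6%) and in 3 of 5 called ones, against 37.9% of all 27025 genes with a window and 40.2% of those tested. In H2-DMb1 it starts 61 bases before the start site, in H2-Eb1 at 59 and 35 and in H2-Oa at 43. The windows of H2-DMb1 and H2-Eb1 also share the run aactgatgatgct, of 13 bases, which begins 92 and 89 bases before the start; besides these, 1 other window of the 27025 holds it (Slc39a10). A match is a description of the letters and not a measured site; called members H2-DMa and Marchf1 have a window without a match.

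Of 33 tested targets of p53, the transcription factor that DNA breaks activate, 8 were called more positive and 2 less positive (30.3%, against 4.3% of all genes), 27 had a difference above 0, and the median was 0.42. Cdkn1a, the gene of the CDK inhibitor p21, had signals of 11.57, 11.76 and 11.13 in Rag1-/- cells in IL-7 and 10.94, 12.19 and 10.94 after withdrawal. In Art-/- cells it went from 13.13, 12.65 and 13.03 to 13.87, 13.76 and 13.99. It was thus higher in every Art-/- array at either time and rose further on withdrawal in each of these cultures (difference 1.07 ± 0.23, adjusted p = 0.0291). Fas, the death receptor, rose by 1.13, 1.35 and 0.99 in Art-/- cultures against -0.08, 0.46 and 0.04 (difference 1.02 ± 0.16, adjusted p = 0.00928). Ccng1, the gene of cyclin G1, had 0.73, 0.95 and 1.07 against 0.19, 0.29 and 0.04 (difference 0.75 ± 0.13), and its other passing probes gave 0.85 and 0.84.

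The other called members of this direction were Psrc1, a microtubule regulator (0.95 ± 0.18), Gtse1, a G2 and S phase protein that restrains p53 (0.68 ± 0.14), Zmat3, an RNA-binding protein (0.65 ± 0.14), Ei24 (0.63 ± 0.11) and the nuclease gene Aen (0.58 ± 0.13). Gtse1 fell in both genotypes (-1.05 in Art-/- and -1.73 in Rag1-/- cells), as the cell-division genes did. Of the 8, 7 were already higher in Art-/- cells in IL-7 by 0.66 to 1.49 with a call, among them Cdkn1a (1.45), Fas (1.28) and Psrc1 (1.49). The 2 less positive members were Bcl2l1, the survival gene of BCL-XL (-1.02 ± 0.18), and Tnfrsf10b, a TRAIL receptor, at -1.04 ± 0.22 by its brighter probe and 0.53 by the other. Mdm2, Bbc3 and Pmaip1, classic p53 targets, had differences of 0.25, 0.20 and 0.42 without a call (adjusted p = 0.281, 0.593 and 0.386). The list held 4 more positive calls without Rag1-/- culture 3, and 3, 4 and 2 without Art-/- culture 1, 2 and 3; it held 4 from the 12 arrays fitted alone, 2 without pairing and 0 with the myeloid covariate, under which its median was 0.41. Cdkn1a itself lost its call without Rag1-/- culture 3 and without any of the Art-/- cultures.

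**Figure D4:**
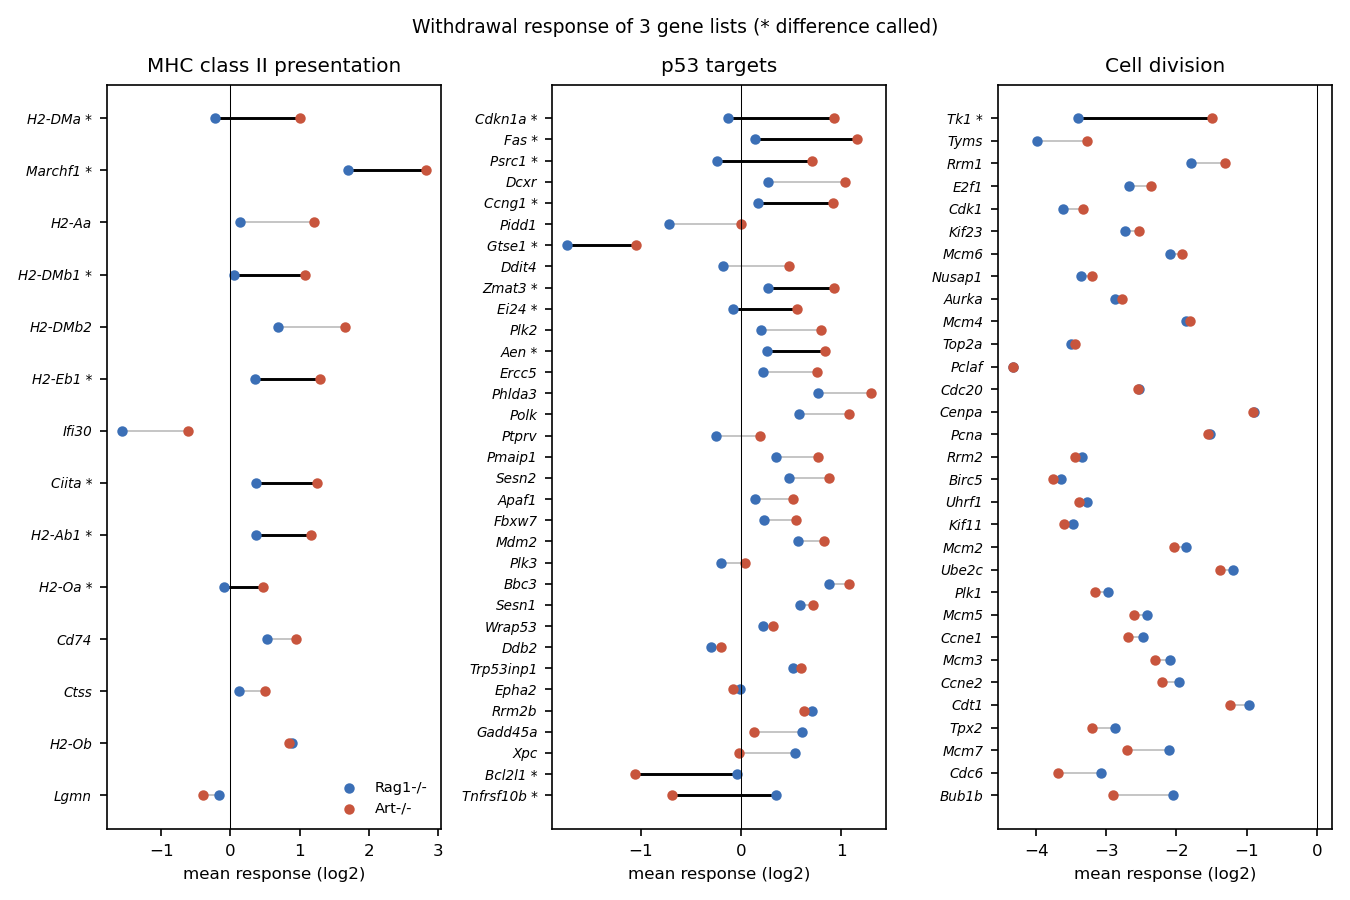
Mean withdrawal response (log2) of each tested member of 3 gene lists, in Rag1-/- cultures (blue) and Art-/- cultures (red); a line joins the 2 values of a gene and is black, with an asterisk at the name, where the difference was called. In the class II list 12 of 14 and in the p53 list 27 of 33 genes lie further right in Art-/- cells, while all 31 genes of cell division fell in both genotypes and only Tk1 was called.

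p53 binds tandem copies of a decamer. A search of the promoter windows for 1 such copy, called the p53 motif here, found it on either strand in 8.37% of all genes with a window and 6.72% of those tested, and in 4 of the 8 called p53 targets with a window (Aen, Ccng1, Cdkn1a and Ei24). Windows of 3 called genes follow because they hold matches beside a measured difference: Cdkn1a, chr17:29090729-29091028 on the plus strand, Ccng1, chr11:40755237-40755536 on the minus strand, and Tk1, chr11:117825965-117826264 on the minus strand. Capitals mark the p53 motif and, in Ccng1, also CCAAT or its reverse complement; the choice was made after the values were seen.
Cdkn1a: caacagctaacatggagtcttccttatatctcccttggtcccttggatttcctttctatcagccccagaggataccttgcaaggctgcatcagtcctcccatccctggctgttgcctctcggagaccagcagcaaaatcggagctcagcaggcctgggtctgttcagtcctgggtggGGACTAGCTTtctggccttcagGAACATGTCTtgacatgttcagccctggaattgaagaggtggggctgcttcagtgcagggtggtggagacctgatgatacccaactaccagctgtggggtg
Ccng1: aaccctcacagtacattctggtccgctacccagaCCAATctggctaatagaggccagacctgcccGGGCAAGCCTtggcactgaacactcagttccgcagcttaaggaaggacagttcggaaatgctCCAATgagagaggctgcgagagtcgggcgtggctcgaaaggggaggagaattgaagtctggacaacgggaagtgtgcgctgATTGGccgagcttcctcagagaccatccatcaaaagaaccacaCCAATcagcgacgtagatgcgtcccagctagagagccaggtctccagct
Tk1: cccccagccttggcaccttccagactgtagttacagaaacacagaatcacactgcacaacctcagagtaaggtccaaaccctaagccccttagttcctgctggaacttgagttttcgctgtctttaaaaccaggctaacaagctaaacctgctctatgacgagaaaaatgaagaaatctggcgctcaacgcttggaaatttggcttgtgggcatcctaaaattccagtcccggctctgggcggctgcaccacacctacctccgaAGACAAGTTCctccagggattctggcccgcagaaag
In Cdkn1a matches begin 73 and 51 bases before the start and in Ccng1 at 185, while in Tk1 the match begins at base 15 counted from the start. Among all called genes with a window the motif stood in 6.02% of the more positive and 11.8% of the less positive ones. The NF-kB motif stood in 9.64% and 10.8%, against 9.81% of genes tested. The windows of Asb2, Mgmt and B3galnt1 held neither motif, and that of Gstt3 held the p53 motif.

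Of 15 tested immediate early and AP-1 genes, which respond within minutes to growth factor and stress signals, 4 were called (26.7%, against 4.3% of all genes). All 4 were more positive (Fosb, Fos, Dusp1 and Ier2), and the median difference of the list was 0.39. Each of the 4 fell in Rag1-/- cells, while in Art-/- cells Fos fell, Fosb rose and the others had no called response. Fos, a subunit of AP-1, went from 9.78, 10.40 and 10.64 to 7.33, 9.12 and 8.58 in Rag1-/- cells, and from 8.45, 8.40 and 7.92 to 7.89, 7.78 and 7.47 in Art-/- cells (difference 1.38 ± 0.24, adjusted p = 0.0136). In IL-7 the level in Art-/- cells minus that in Rag1-/- cells was -2.02, and after withdrawal it had no call (-0.63, adjusted p = 0.217, with 1 Rag1-/- array below all Art-/- arrays). Fosb, its relative, changed by 0.13, 0.94 and 0.95 in Art-/- cultures and by -1.64, -0.28 and -1.18 in Rag1-/- cultures (difference 1.71 ± 0.32), and also started lower in Art-/- cells. Dusp1, a phosphatase of MAP kinases, had values of 0.16, 0.17 and 0.22 against -1.53, -0.76 and -1.02 (difference 1.29 ± 0.18, adjusted p = 0.00436). Among the arrays compared, Ier2 was detected on the 3 Rag1-/- arrays in IL-7 only. It fell there at least 1.07-fold, so its difference (1.25 ± 0.19) rests on that fall. Elsewhere it was detected on 1 Art-/-:Nfkb2-/- array in IL-7. Ier2 thus passed the filter of detection on 3 arrays only through the group where it is high. Its adjusted p is no separate support for that fall, and the 4 calls of the list include it. It was not tested under a filter of detection on at least 9 arrays. Egr1 (0.71), Junb (0.39), Jun (0.28) and Dusp2 (-0.07) were not called. Without Art-/- culture 3 the list held 2 calls, with Fos and Fosb lost. Fos also lost its call without Art-/- culture 1 and without pairing. Fosb also lost its call without Rag1-/- culture 3, without Art-/- culture 2, without pairing and from the 12 arrays fitted alone.

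All 31 tested genes of cell division fell in both genotypes, with list medians of -2.69 in Art-/- and -2.68 in Rag1-/- cells, and Tk1 alone was called (3.23%, against 4.3% of all genes). Top2a, a topoisomerase of replicating cells, changed by -3.45 in Art-/- and -3.50 in Rag1-/- cells (difference 0.05 ± 0.24, adjusted p = 0.938), Birc5 by -3.76 and -3.65, and the helicase gene Mcm2 by -2.04 and -1.86. Tyms, which like Tk1 supplies thymidylate, had a difference of 0.72 without a call (adjusted p = 0.0594).

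Among 17 tested cyclins, CDKs and inhibitors of G1, 3 were called more and 3 less positive, against 2.69% and 1.61% of all genes. Ccnd2, the cyclin D2 gene, went from 13.45, 13.76 and 13.31 to 9.55, 9.24 and 9.35 in Rag1-/- cells and from 13.76, 13.69 and 13.60 to 10.64, 10.99 and 10.53 in Art-/- cells. The groups overlapped in IL-7 and stood apart afterwards, with falls of 17.5-fold and 7.79-fold (difference 1.17 ± 0.18, adjusted p = 0.00986). Ccnd3, the cyclin D3 gene, went the other way, with falls of 2.03-fold in Rag1-/- and 3.0-fold in Art-/- cells (difference -0.56 ± 0.11, adjusted p = 0.0172). The other called members were Rb1, the retinoblastoma gene (0.58 ± 0.12 by its brighter probe), Cdkn1a, Cdkn1c, the gene of the CDK inhibitor p57 (-0.88 ± 0.18), and E2f2, an S-phase transcription factor (-0.84 ± 0.16). The other probe of Rb1 gave 0.19 (limma's unadjusted p = 0.191), and its call was lost with the mean of its probes. The list held 1, 2 and 1 more positive calls without Art-/- culture 1, 2 and 3, 1 without Rag1-/- culture 3, and 0 less positive ones without any of the Art-/- cultures.

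In the list of IL-7 receptor and STAT5 genes, 2 of 23 were more positive (Ccnd2 and Dusp6) and 3 less positive (Bcl2l1, Socs2 and Ccnd3), against 2.69% and 1.61% of all genes. The less positive calls numbered 1, 2 and 0 without Art-/- culture 1, 2 and 3. Dusp6, a phosphatase of ERK, changed by 0.5, 0.31 and 0.74 in Art-/- cultures and by -0.24, -0.38 and -0.58 in Rag1-/- cultures (difference 0.92 ± 0.14, adjusted p = 0.00825). Bcl2l1 fell from 9.79, 9.87 and 10.21 to 8.84, 8.86 and 8.99 in Art-/- cells, while in Rag1-/- cells it was 9.79, 10.22 and 9.83 before and 9.59, 10.00 and 10.12 after. Socs2, a brake on cytokine signals, changed by -3.36 in Art-/- and -2.55 in Rag1-/- cells (difference -0.81 ± 0.14). Cish (-0.46), Myc (-0.20) and Il7r (-0.35) were not called. Of the BCL2 family, 1 of 12 was called (8.33%, against 4.3% of all genes), Bcl2l1 itself.

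Of the genes of the pre-B-cell receptor and its signalling, 1 of 20 was more positive and 2 were less positive (15% called, against 4.3% of all genes). Vpreb1, which stands in for a light chain in that receptor, started between 13.96 and 14.40 in all 6 cultures. It ended at 12.19, 12.54 and 12.78 in Rag1-/- and 10.92, 11.09 and 11.77 in Art-/- cells, falls of 3.25-fold and 7.41-fold (difference -1.19 ± 0.20, adjusted p = 0.0121). The call of Vpreb1 was lost without Art-/- culture 1. Vpreb3, a chaperone-like relative, rose by 0.34 in Rag1-/- and fell by 0.31 in Art-/- cells (difference -0.65 ± 0.14), and its call was lost without Rag1-/- culture 2 or 3 and without Art-/- culture 1 or 2. Rasgrp3, an activator of Ras downstream of the receptor, rose by 1.12 in Art-/- cells (difference 0.87 ± 0.14). Syk and Blnk, the kinase and the adaptor next to the receptor, had differences of -0.05 ± 0.16 and -0.47 ± 0.16 without a call (adjusted p = 0.899 and 0.142).

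Of 28 tested genes with roles in light-chain recombination and in pre-B differentiation, 4 were more positive and 0 less positive (14.3% called, against 4.3% of all genes): Spic, Klf6, Rag1 and Bcl6. Rag1 rose from 11.37, 11.54 and 11.91 to 12.41, 12.88 and 12.86 on the arrays labelled Rag1-/- and from 9.39, 9.22 and 9.74 to 11.56, 11.18 and 11.37 on those labelled Art-/- (difference 0.81 ± 0.18, adjusted p = 0.0313). Its level was higher on the former arrays at both times, and the call was lost without Rag1-/- culture 1 or 3 and without Art-/- culture 1 or 2. Rag2 was not called (-0.60 ± 0.29) and was detected on no Art-/- array. Klf6, a zinc-finger factor, rose by 0.52 in Art-/- and fell by 0.41 in Rag1-/- cells (difference 0.93 ± 0.12, adjusted p = 0.0043). Its other probe gave 0.36 (limma's unadjusted p = 0.339), and the call was lost with the mean of its probes. Bcl6, a repressor that shields precursors from damage-induced death, rose by 1.81 and 1.17 (difference 0.64 ± 0.15), and its call stayed in 2 of the 6 fits with a culture left out. Irf4 (-0.20), Foxo1 (-0.10), Ikzf1 (0.05) and Spi1, the gene of PU.1 (-0.02), were not called. Of the 12 genes that the published study is known to discuss, Spic alone was called (8.33%, against 4.3% of all genes), and it passed the filter only through the withdrawn Art-/- arrays. Pim2 (0.25), Bcl3 (0.49), Nfkb2 (0.20), Cd40 (0.23), Cd69 (0.00), Swap70 (0.13), Bclaf1 (0.04) and Gadd45a (-0.48) were not called. The other probes of Pim2 gave 1.0 (limma's unadjusted p = 0.00404) and 0.48.

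Of 35 tested NF-kB subunits, regulators and targets, 4 had a called more positive difference and 1 a less positive one (14.3%, against 4.3% of all genes). The difference was above 0 for 29 and had an unadjusted p below 0.05 for 18, and its median was 0.32. On withdrawal 26 rose in Art-/- cells (32.1% of all genes did) and 19 in Rag1-/- cells (30.9%). Nfkb2 itself rose from 6.67 ± 0.15 (SD, n = 3) to 7.56 ± 0.09 in Rag1-/- and from 7.70 ± 0.10 to 8.80 ± 0.05 in Art-/- cells, by 0.89 and 1.10 (difference 0.20 ± 0.11, adjusted p = 0.346). The called members were Tnfsf8, Cd86, Traf2 and Ikbke, with Gadd45b (-0.71 ± 0.16) on the other side. Cd86, a costimulatory ligand for T cells, changed by 0.84, 0.36 and 0.60 in Art-/- cultures and by -0.93, -0.98 and -0.81 in Rag1-/- cultures (difference 1.51 ± 0.19, adjusted p = 0.0027; its other probe gave 1.83). Traf2, an adaptor of TNF receptors, had 0.80 ± 0.15, and Ikbke, an IKK-related kinase, 0.71 ± 0.17. Relb (0.14), Birc3 (0.25), Ltb (0.57) and Cd83 (0.06) were not called. Without Art-/- culture 3 the list held 2 more positive calls, and with a culture left out the call of Ikbke stayed in 1 of 6 fits and that of Gadd45b in 0. Of 17 ligands and receptors of the TNF superfamily, 35.3% were called, against 4.3% of all genes: 4 were more positive (Tnfsf8, Tnfsf4, Fas and Tnfrsf18) and 2 less positive (Tnfrsf10b and Tnfrsf21). These 2 lost their call without Rag1-/- culture 2 or 3 and without Art-/- culture 1 or 3.

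In the metabolic lists, 12.5% of glycolysis genes and 10.5% of amino acid and ATF4 genes were called, against 4.3% of all genes. Of 16 glycolysis genes, Aldoc (0.89 ± 0.15) and the glucose transporter gene Slc2a3 (0.79 ± 0.15) were more positive, and of 19 amino acid and ATF4 genes Cebpb (0.90 ± 0.15) and the transporter gene Slc7a5 (0.65 ± 0.16). Each of the 4 fell in Rag1-/- cells (-2.02, -0.63, -1.64 and -0.84 in that order, against -1.13, 0.16, -0.74 and -0.19 in Art-/- cells). Of 22 adhesion, homing and costimulation genes, 18.2% were called, against 4.3% of all genes. Cd86 and the chemokine receptor gene Cxcr5 (0.73 ± 0.17) were more positive, and Selplg (-0.63 ± 0.13) and S1pr4 (-0.60 ± 0.14) less positive. Of the 6 fits with a culture left out, the call of Slc2a3 stayed in 3, that of S1pr4 in 2 and those of Slc7a5, Cxcr5 and Selplg in 1 each. By limma's adjusted test 0 genes were called among 23 of DNA break response and repair, 20 of MYC and ribosome biogenesis, 20 of cholesterol and fatty acid synthesis and 25 interferon-stimulated genes, with 3, 2, 2 and 3 at an unadjusted p below 0.05 and median differences of 0.04, 0.04, -0.03 and -0.07.

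Transcripts of myeloid cells were present and moved with the comparison. The summed linear signal of the 21 listed myeloid markers with a probe, tested or not, was 9730, 18600 and 27300 on the Rag1-/- arrays in IL-7. After withdrawal it was 2560, 9070 and 10100. In Art-/- cells it was 11900, 10500 and 10300, and then 5860, 5360 and 6010. Within a culture the withdrawn signal was 0.263, 0.487 and 0.369 of that in IL-7 in Rag1-/- cells and 0.491, 0.508 and 0.582 in Art-/- cells, so that it fell further in each Rag1-/- culture. Of the 16 tested markers 15 had a difference above 0, with a median of 0.42, and 10 were detected on no array of at least 1 of the 4 groups. Adgre1, the macrophage marker F4/80, was the only one called (1.09 ± 0.23), or 6.25% against 4.3% of all genes, and was detected on no Art-/- array. The defining markers Itgam, Cybb and Ccr2 were detected on no array of the 12.

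Among the called genes were others of myeloid expression. Ms4a6d, a gene of macrophages, read 6.78, 7.99 and 8.41 in Rag1-/- cells in IL-7 and was not detected after withdrawal, at least 2.63-fold lower, while in Art-/- cells it was 7.68, 7.89 and 7.40 and then 7.35, 7.51 and 7.60 (difference 1.93 ± 0.24, adjusted p = 0.0027). Ms4a7 (1.01 ± 0.22), Lst1 (1.48 ± 0.15), Clec4d (0.76 ± 0.18), Clec4b1 (0.82 ± 0.18) and Lpl (1.25 ± 0.16) were also more positive. These 5 were chosen after their values were seen. Lst1 alone of them had a called rise in Art-/- cells (0.74, against -0.74 in Rag1-/- cells). Another lectin gene, Clec4f, was called the other way, less positive, with a called rise in both genotypes. Ms4a7 and Clec4b1 were each detected on 2 Rag1-/- arrays in IL-7 and on no other array of the 12, so their differences rest on a Rag1-/- fall into background. Clec4d was undetected in withdrawn Art-/- cells. What part myeloid cells had in these differences or in those of class II genes, which they also express, was not tested.

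Of the other marker lists, 2 of 6 for mature B and plasma cells were more positive (Fcer2a and Cxcr5), and 3 of 14 for pre-B cells less positive (Vpreb1, Vpreb3 and Cd93), against 1 more positive (Rag1). These lists thus had 33.3% and 28.6% of their tested members called, against 4.3% of all genes. Of the 14 pre-B markers 1 had a difference above 0, and the median was -0.43. Their summed linear signal in Rag1-/- cells was 147000 to 154000 in IL-7 and 161000 to 183000 after withdrawal. In Art-/- cells that sum was 134000 to 141000 and then 121000 to 134000. Of the erythroid list only Car2, carbonic anhydrase 2, was tested; it gave -0.59, -1.26 and -1.74 in Rag1-/- cultures and 0.17, 0.73 and 0.33 in Art-/- cultures (difference 1.61 ± 0.26), while 7 of the 9 erythroid markers on the array, among them Alas2, Klf1 and Gata1, were detected on none of the 12 arrays. Of the 2 tested genes of the early progenitor list Cd93 was less positive (-0.88 ± 0.16). By limma's adjusted test 0 of 4 T cell, 3 NK cell, 1 mast cell and 5 stromal markers were called (1, 2, 0 and 0 at an unadjusted p below 0.05). A gene of none of these lists, named after its values were seen, had the largest fall of any called gene: Myl10, a myosin light chain, read 14.47 ± 0.30 (SD, n = 3) in Rag1-/- and 14.54 ± 0.17 in Art-/- cells in IL-7, fell 169-fold in Art-/- cells and was not detected in withdrawn Rag1-/- cells, at least 281-fold lower (difference 1.06 ± 0.22, adjusted p = 0.0254).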

How the data were processed

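The deposited signal table gives 1 intensity and 1 detection p-value per probe for each array, and per the file headers the intensities are not normalized. The intensity values of the deposited series matrix are linear and background-subtracted as far as the values show; the sources used here do not give its steps. The submitters' processing notes name Partek and GenomeStudio without a version. The design text speaks of independent cultures, and these were the replicates.

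Background correction (normexp, fitted on the detection p-values), quantile normalization of all 18 arrays and a log2 transform with an offset of 16 were done with neqc (limma 3.58.1, R 4.3.3). Kept were the 11356 probes with a detection p below 0.01 on 3 or more arrays; a gene was represented by its brightest probe, for 8446 entries, 673 of them without a symbol. The response difference was a contrast in a linear model of all 18 arrays with each culture as a fixed block (lmFit and eBayes, two-sided, Benjamini-Hochberg over all entries, threshold 0.05), with 6 residual degrees of freedom. Arrays of 1 culture deviated together in all 9 pairs (correlation of deviations 0.374 to 0.588), so the numbers pair the samples as the design states. With other numbers the correlation was at most -0.0685. Deviations from a group mean cancel within the group, so positive values for own numbers push those for other numbers down. The latter are therefore no separate support for the pairing. Levels within a time were compared in the model over groups without the block. SE is the moderated standard error. Where no array of a group detected a gene, a fold is a lower bound: on each array of that group the gene's value was replaced by the lowest value of any detected probe if that was higher, and the mean was set against the brighter group's mean. The model was tested on simulated data.

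The text names, by a rule, the 15 largest differences per direction among called genes whose culture responses do not overlap, called members of 28 lists, the study's genes and the targeted genes. The members and lists were chosen with earlier results of these data known. Older symbols in the lists were replaced by the current one where it was unique. Genes outside the rule were chosen after their values were seen. Alternatives covered the block, the arrays fitted, normalization, offset, filter, probe choice, the prior and each culture left out. The myeloid covariate, the mean log2 signal of the 16 tested markers on each array, was added after seeing the data.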

Additional observations from a re-analysis of the deposited data

Results flagged for a closer look

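The 2 genotypes differed in their response to IL-7 loss for 363 genes by a test of the difference itself, and for the named genes among them that had a called response of opposite sign in each genotype the differences were as follows, in log2 units of the Art-/- minus the Rag1-/- response. Genes that rose in Art-/- and fell in Rag1-/- cells were Mgmt (1.94), Lrp4 (1.87), Ass1 (1.84), Tnfsf8 (1.82), St14 (1.75), Fosb (1.71), Ticam2 (1.60), Cd86 (1.51), Tnfrsf18 (0.94), Klf6 (0.93) and Dusp6 (0.92). In Rag1-/- cells Tnfsf8, Lrp4 and St14 were undetected on most arrays and Mgmt on every withdrawn array, so their falls there lie at or near background. Genes that fell in Art-/- and rose in Rag1-/- cells were Asb2 (-2.93), Hmces (-1.76), Thbd (-1.57) and Vpreb3 (-0.65). Of the 6 fits with a culture left out, the calls of Fosb and Tnfrsf18 stayed in 3 each and that of Vpreb3 in 2. Groups of 3 arrays are too small for a search for arrays that stand apart, and no such search was made.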

How the results depend on the processing

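The count of 363 called genes (227 more and 136 less positive in Art-/- cells) moved with the myeloid covariate, the pairing and the cultures. With the myeloid covariate, chosen after seeing the data, limma called 0 genes (0 and 0; 595 at an unadjusted p below 0.05). Without the replicate block it was 107 (66 and 41), with the 12 arrays alone and the block 151 (94 and 57), and with 1 culture left out 155 to 572 (98 to 314 more and 51 to 258 less positive). It was 572 without Rag1-/- culture 1, 231 without Rag1-/- culture 3, and 155, 193 and 164 without Art-/- culture 1, 2 and 3. With culture as a random block it was 438, with trend and robust prior 533, with offset 50 469, with no filter 259 and with the series matrix 307. Scaling by medians in place of quantiles gave 363 (286 more and 77 less positive), so that the share more positive was 78.8% in place of 62.5%, with a median difference over all genes of 0.11. All 363 kept their sign wherever they were tested. With a culture left out this was fixed in advance, since the culture responses of the called genes do not overlap between the genotypes. Fits that changed only the block or the prior gave the same differences, so the sign could not change there either. Of the 80 named called genes 40 stayed called with each culture left out in turn and 34 without the replicate block.

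Values that changed sign belonged to genes without a call. With 1 culture left out, Bclaf1 lay between -0.06 and 0.18, Cd69 between -0.17 and 0.32, Spi1 between -0.10 and 0.09, Swap70 between -0.02 and 0.28 and Syk between -0.12 and 0.04. With the myeloid covariate Bclaf1 was -0.09 and Cd69 -0.40, with the series matrix Cd69 was 0, and with scaling by medians Spi1 was 0.10 and Syk 0.04. The cause of these shifts was not tested. A block on slides could not be run, since no slide is named. Signals near background limit the dim genes: 68 called genes were detected on no array of at least 1 of the 4 groups.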
